A study of Mus musculus with 30 samples.

Results

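The genes described here are 32 genes of cholesterol and fatty acid synthesis, taken by name from a list of enzymes and regulators wherever a deposited expression table listed them. They stood among 13456 genes listed in at least 1 of 7 tables, and 31 or 32 of them were listed in each table. The list holds 7 enzymes of the mevalonate steps, 11 enzymes from squalene to cholesterol, 5 regulators, 6 enzymes of fatty acid synthesis and 3 enzymes of polyunsaturated fatty acids. The rule asks for a name on that list and a row in a table, not for a level or a change. The list itself was chosen with earlier results of these data known.

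mRNA was sequenced in 30 mouse samples, in 10 groups of 3. Colon epithelium came from C57BL/6J mice, either Smad4+ controls or Smad4ΔLrig1 mice, whose samples carry the label KO. Smad4 is the transducer shared by the TGFB and BMP pathways, and Lrig1, which the name of the deletion carries, marks stem and progenitor cells of the gut; the ages of the mice, and the driver and timing of its deletion, were absent from the labels used. Cultures labelled as IMCfl/fl Smad4+ colonocytes stayed untreated or received TNF alone, the pair TGFB1 and BMP2, or these 3 ligands together, at doses the labels do not state. All 4 of these groups share the floxed line. The series text calls replicates biological without saying what separates the cultures, so their p-values may cover technical spread only. Colonoids, organoids of colon epithelium, came from the lines L42, L43 and L46 and received vehicle, 100 ng/mL TNF, 3 ng/mL TGFB1 with 10 ng/mL BMP2, or all 3 ligands.

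Cholesterol is built from acetyl-CoA through mevalonate to farnesyl diphosphate, then through squalene and lanosterol to the finished sterol. When membrane sterol is low, SCAP carries the SREBP proteins, encoded by Srebf1 and Srebf2, from the endoplasmic reticulum to the Golgi, where they are cleaved and become transcription factors for nearly all genes of the pathway; INSIG proteins hold SCAP back. Fatty acids are built from citrate by ATP citrate lyase, acetyl-CoA carboxylase and fatty acid synthase, then lengthened by elongases and given double bonds by desaturases, and the gut epithelium uses both routes for the membranes of its fast renewal.

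Because SREBP proteins act at promoters, the start regions of the members were read first. RefSeq windows on GRCm38.p6, 300 bases long (250 before and 50 after an annotated start), were at hand for 26 of the 32 genes. The sterol response element TCACNCCAC was found, on either strand, in 1 of the 26 genes (3.85%, against 1.44% of all genes with a window), and that gene was Hmgcs1. The E-box CACGTG was found in 6 genes (23.1% against 8.09%), namely Dhcr7, Elovl5, Hsd17b7, Insig1, Sc5d and Scap. The NF-Y box CCAAT was found in 21 genes (80.8% against 41.1%), and the SP1 box GGGCGG also in 21 (80.8% against 38.2%). On the gene's own strand alone, CCAAT was found in 11 of the 26 genes (42.3% against 23.7%). Matches of different motifs that overlap were all kept, a match is a description of letters only, and shares are of genes with at least 1 matching window.

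The windows of 3 genes that rose with TGFB1 and BMP2 in colonoids are shown, since their values carry much of what follows. Of the 26 genes, windows were taken for the 1 that fell most and the 4 that rose most there (Fads2, Hsd17b7, Scap, Sc5d and Hmgcs1), and they are shown where 200 bases or more lie ahead of the gene's annotated UTR. Each is written 5′ to 3′ on the gene's strand, with matches to the sterol response element, the E-box and the NF-Y box, on either strand, in capitals. Hsd17b7 is shown at chr1:169969242-169969455 (minus strand), Sc5d at chr9:42264301-42264550 (minus strand) and Hmgcs1 at chr13:119690101-119690350 (plus strand).
Hsd17b7: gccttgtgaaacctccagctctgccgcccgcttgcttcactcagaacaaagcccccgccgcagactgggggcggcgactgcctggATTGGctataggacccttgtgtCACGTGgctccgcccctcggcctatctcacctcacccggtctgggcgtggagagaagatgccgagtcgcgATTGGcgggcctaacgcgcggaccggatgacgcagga
Sc5d: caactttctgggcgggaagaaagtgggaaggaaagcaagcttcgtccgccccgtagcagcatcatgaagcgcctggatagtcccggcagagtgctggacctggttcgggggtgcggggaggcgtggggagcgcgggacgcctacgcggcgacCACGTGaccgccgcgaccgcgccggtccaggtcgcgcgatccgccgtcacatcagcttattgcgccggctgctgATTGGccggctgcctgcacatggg
Hmgcs1: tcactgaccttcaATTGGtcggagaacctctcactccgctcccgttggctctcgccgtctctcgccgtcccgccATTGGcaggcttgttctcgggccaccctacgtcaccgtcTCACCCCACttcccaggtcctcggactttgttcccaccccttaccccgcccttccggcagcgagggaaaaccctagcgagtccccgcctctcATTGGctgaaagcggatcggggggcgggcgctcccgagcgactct
Hsd17b7 holds 1 E-box and 2 NF-Y boxes in the printed 214 bases, whose 5′ end overlaps an exon of an annotated antisense noncoding transcript. Sc5d holds 1 E-box and 1 NF-Y box in 250 bases. Hmgcs1 holds the sterol response element and 3 NF-Y boxes in 250 bases, and no E-box.

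Libraries held 21.6 to 61.7 M recovered reads over listed genes. Values are in CPM on the authors' scale, and a sentence that gives a log2 change uses log2(CPM + 1), its standard error (SE) and an adjusted p from limma. A gene is called higher or lower where that adjusted p is under 0.05. Smad4 itself stood at 132, 148 and 152 CPM in control colon and at 47.8, 59.2 and 46.1 CPM in knockout colon. In the 12 IMC libraries it stood between 112 and 130.2 CPM. Colon and colonoids listed 12 of 12 epithelial markers, whereas the IMC cultures listed 3 or 4 of 12, with Epcam, Vil1, Krt20 and Cdx2 unlisted and Krt8 at 1.17 CPM in the controls of the TNF table, and 0 of 10 absorptive colonocyte markers. They listed 10 of 12 stromal markers, with Vim at 3133 CPM and Col1a1 at 2157 CPM, so the cells are called IMC cultures below. In all bulk samples, fewer cells of a type and less RNA per cell cannot be told apart.

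The levels of the members before any treatment differed between the 3 systems. Per kilobase of exon (CPM per kb, the mean of 3 libraries), Scd2, a stearoyl-CoA desaturase that makes monounsaturated fatty acids, was first in every system, at 227 in control colon, 111 in IMC controls and 613 in vehicle colonoids. Hmgcs1, the cytosolic HMG-CoA synthase at the entry to the mevalonate route, was second in colon (110.5) and in colonoids (157), and took rank 10 in IMC cultures (24.6). In IMC cultures the desaturases Fads2 (82.2) and Fads1 (61.1) ranked next after Scd2, while Fads1 stood at 15.7 in colon and 17.1 in colonoids. Tm7sf2, a sterol reductase, was last in IMC cultures at 0.402 CPM per kb, against 7.2 in colon and 13.6 in colonoids. Tables were normalized separately, so these levels are set side by side without a test.

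**Figure D1:**
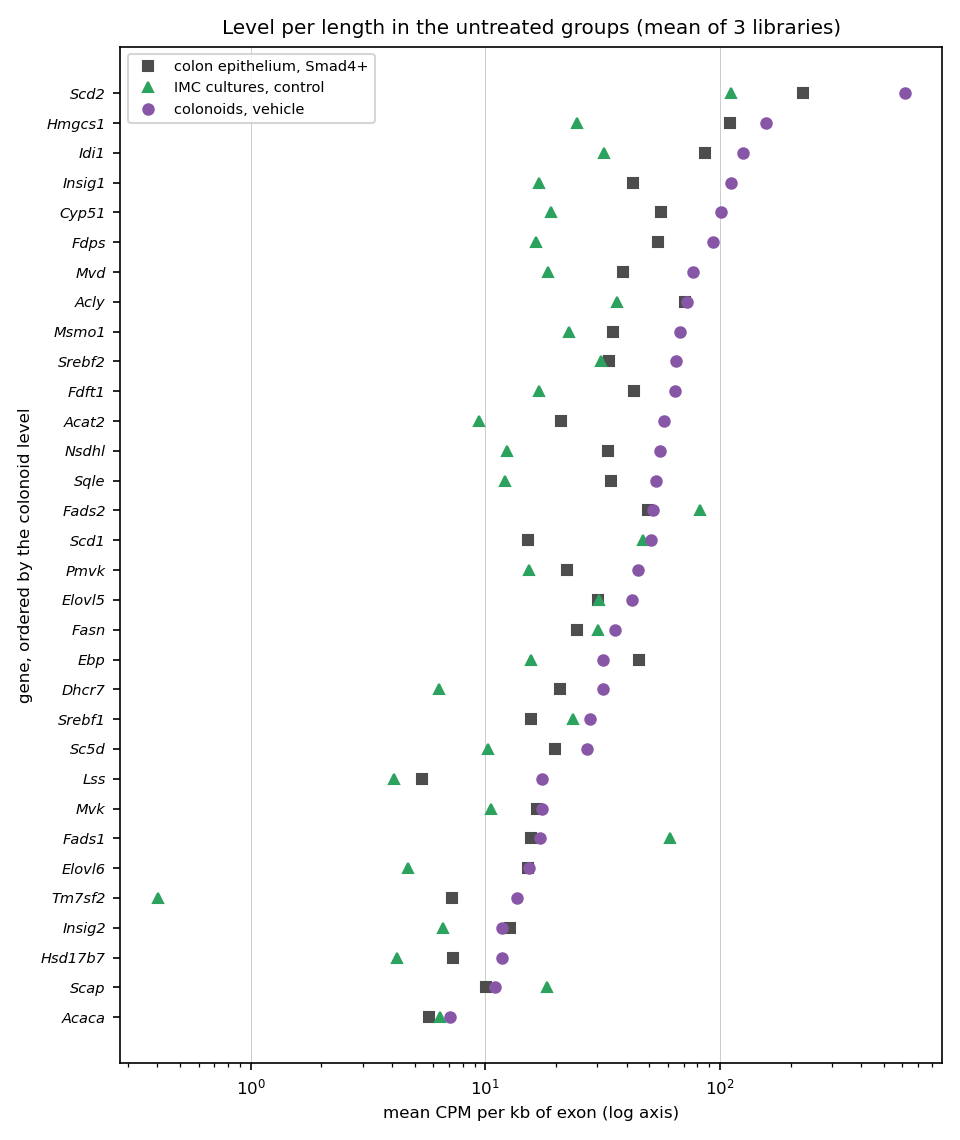
Mean CPM per kilobase of exon (log axis) of each of the 32 genes in the untreated group of each system, 3 libraries per point. Scd2 lies farthest right in all 3 systems, and Tm7sf2 lies far to the left in IMC cultures, at 0.402 CPM per kb.

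In colon epithelium without Smad4, 4 desaturases (Scd1, Scd2, Fads1 and Fads2) and the elongase Elovl6 rose. Of the 32 genes, 9 were higher and 4 lower, 13 in all, where 39.7% of 11607 genes tested were called, 19.8% higher and 19.9% lower. The members' share of calls is thus near that of all genes. The members' median log2 change was 0.124, and that of all genes 0.002. Among the 9 enzymes of fatty acid synthesis and polyunsaturated fatty acids, 5 were higher and 0 lower, with a median of 0.436. Among the 18 sterol enzymes, 4 were higher and 3 lower, with a median of 0.087, a share of calls also near that of all genes.

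Fads1, the desaturase that forms arachidonic acid, stood at 91.2, 69.1 and 66.9 CPM in control mice and at 169, 164 and 117 CPM in knockout mice. Its log2 change was 0.97 (SE 0.16, adjusted p = 0.00166), and the groups did not overlap. Fads2, which takes the first desaturation step of that route, went from 157, 172 and 159 CPM to 296, 255 and 200.2 CPM (log2 change 0.60, SE 0.14, adjusted p = 0.00677). The third enzyme of this route, the elongase Elovl5, stood at 94.3 to 119 CPM in controls and 115 to 135 CPM in knockouts, and did not pass the test (log2 change 0.22, adjusted p = 0.148).

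Both stearoyl-CoA desaturases nearly doubled. Scd1 stood at 62.7, 81.6 and 78.4 CPM in controls and at 148, 163 and 119 CPM in knockouts (log2 change 0.94, SE 0.14, adjusted p = 0.000957). Scd2 stood at 1453, 1128 and 1139.6 CPM in controls and at 2349.9, 2398 and 2400.2 CPM in knockouts (log2 change 0.95, SE 0.12, adjusted p = 0.000531). In both genes every knockout library lay above every control library. Elovl6, which lengthens palmitate, rose from 97.4 ± 5.32 to 132 ± 9.0 CPM (SD, n = 3 each), a log2 change of 0.44 (limma adjusted p = 0.00646). The enzymes that build the chain itself did not pass: Acly went from 375 ± 16.4 to 367 ± 26.0 CPM (adjusted p = 0.828), Acaca from 98.0 ± 2.19 to 114 ± 16.8 (0.182) and Fasn from 268 ± 49.3 to 242 ± 42.1 (0.482).

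**Figure D2:**
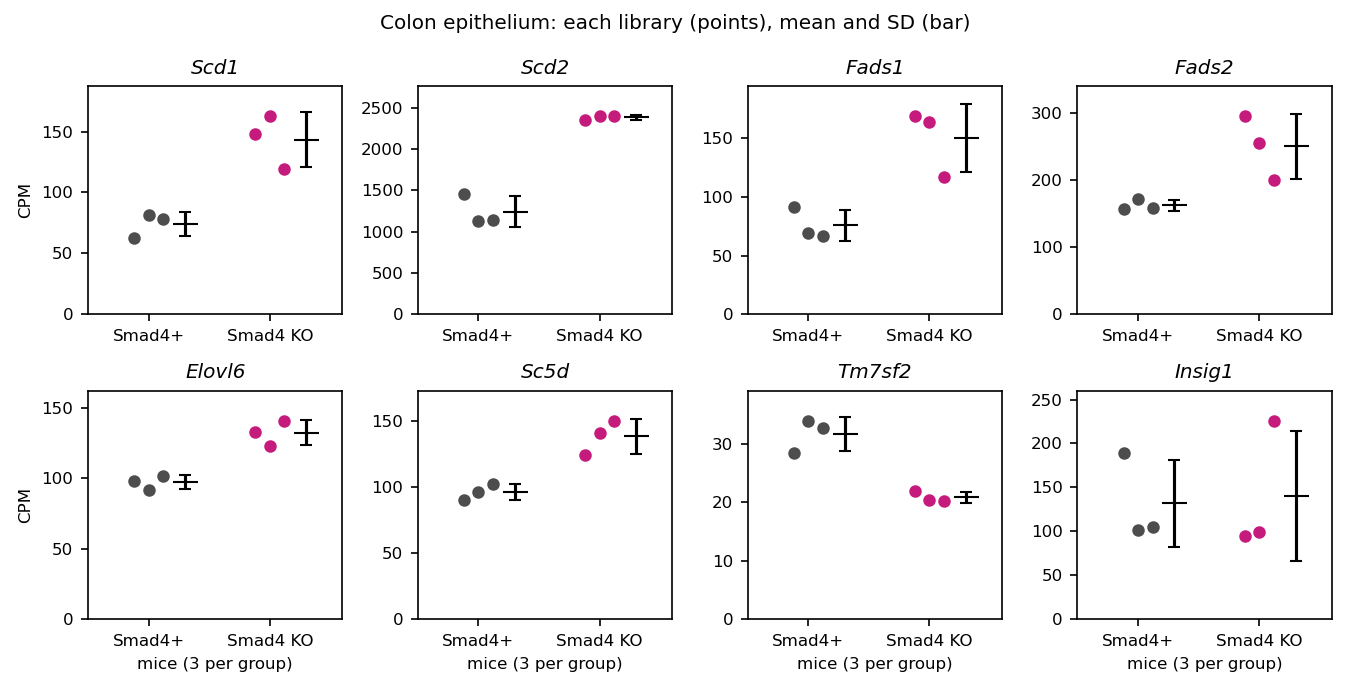
CPM of 8 members in colon epithelium of 3 Smad4+ control mice (grey) and 3 Smad4 knockout mice (magenta); bars give mean and SD, and every axis starts at 0. The 6 panels from Scd1 to Sc5d show knockout points above all control points, Tm7sf2 shows them below, and Insig1 shows 1 high library in each group.

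The 4 sterol members that rose all belong to the steps after squalene, and those that fell to both stretches of the pathway. Sc5d, a desaturase of the last steps, stood at 90.4, 96.1 and 102 CPM in controls and at 124, 141 and 150.1 CPM in knockouts (log2 change 0.52, SE 0.10, adjusted p = 0.004). Sqle, the squalene epoxidase, stood at 189 ± 3.22 CPM in controls and 248 ± 32.0 CPM in knockouts, with no overlap (log2 change 0.38, adjusted p = 0.0184). Nsdhl and Cyp51, both of the steps that strip methyl groups from lanosterol, had log2 changes of 0.43 and 0.33 (adjusted p = 0.0421 and 0.0497), and the call of Cyp51 was lost with edgeR (0.0522), with a pseudocount of 0.25 CPM (0.0501) and without any 1 of 5 libraries. The call of Nsdhl was lost without any 1 of 4 libraries, and that of Sqle without any 1 of 3.

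Tm7sf2 stood at 28.4, 34.0 and 32.7 CPM in controls and at 22.0, 20.4 and 20.2 CPM in knockouts. On the log2 scale it fell by 0.58, with an SE of 0.12 (adjusted p = 0.00408). The mevalonate kinases Mvk and Pmvk fell by 0.47 and 0.42 (adjusted p = 0.019 and 0.0241), each with every knockout library below every control library, and the calls were lost without any 1 of 2 libraries for Mvk and of 4 for Pmvk. Hmgcs1 stood at 615, 436 and 471 CPM in controls and 505, 564 and 798 CPM in knockouts, groups that overlap (adjusted p = 0.235). Dhcr7, the last reductase of the pathway, stood at 122 ± 6.58 and 128 ± 5.11 CPM (adjusted p = 0.559).

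Of the regulators, Scap alone was called. It stood at 79.2, 77.5 and 67.8 CPM in controls and 64.5, 50.5 and 55.4 CPM in knockouts, and fell by 0.40 (SE 0.12, adjusted p = 0.0238, lost without any 1 of 3 libraries). Srebf2, whose product drives the sterol genes, stood at 243 ± 15 and 240.3 ± 37.2 CPM (adjusted p = 0.89), and Srebf1, whose product drives fatty acid genes, at 87.7 ± 16.0 and 96.8 ± 15.2 CPM (0.48). Insig2 stood at 44.3 ± 3.87 and 36.6 ± 1.59 CPM without overlap, and missed the threshold (adjusted p = 0.0759). Insig1, itself a sterol-responsive gene, stood at 189, 101 and 105 CPM in controls and at 95.1, 99.4 and 226 CPM in knockouts. Its high library in the knockout group, mouse 3, also held the highest knockout value of 12 of the 18 sterol members.

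Related lists were counted against the same 19.8% higher and 19.9% lower over all genes. Fatty acid oxidation and ketogenesis had 0 of 26 genes higher and 18 lower, with a median log2 change of -0.568. It included Pdk4, a kinase that restrains glucose oxidation (log2 change -1.79, adjusted p = 0.00186). Among 29 genes of fatty acid supply, 6 were higher and 6 lower, a share near that of all genes, led by Me1, the malic enzyme that supplies NADPH (20.1 ± 2.22 to 43.6 ± 4.67 CPM), and Lpin1 upwards, and by Acacb and Mcat downwards. Among 23 genes of sterol uptake, transport and efflux, 2 were higher, among them the exporter Abcg1 (2.79 ± 0.178 to 10.3 ± 0.870 CPM), and 3 were lower, among them Fdxr and Nr1h3, a share below that of all genes. Absorptive colonocyte markers were lower in 7 of 9. Their summed level ran from 11664 to 13148 CPM in controls and was 4202, 4252 and 9429 CPM in knockout mice 1, 2 and 3. Mouse 3 also held the knockout values of Fads1, Fads2 and Scd1 nearest to controls, though not that of Scd2. The part of these markers in the results was not tested. Without control mouse 2, or without knockout mouse 2, 7 of the 32 members were called, of which 5 were among the 9 fatty acid enzymes and 2 among the 18 sterol enzymes. Of all genes, 2721 and 2708 were called in these settings.

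TNF was the treatment with the smallest changes in these genes. In IMC cultures, 0 of the 32 members were called by limma, where 6.28% of 11586 genes were, and edgeR and DESeq2 called 0 members as well. At an unadjusted p under 0.05 there were 2 members, Tm7sf2 and Hsd17b7, a reductase of late sterol synthesis. Scd2 stood at 688, 682 and 484 CPM in controls and at 545, 567 and 388 CPM with TNF. Each TNF library of Scd2 lay below the control of the same replicate number, yet the groups overlap (log2 change -0.31, SE 0.15, adjusted p = 0.311). In this table the replicate numbers were read as pairs, though the titles give the numbers only. With the number as a block 5 members were lower, Scd2, Scd1, Fads2, Srebf1 and Insig1. The limma adjusted p under the block was 4.71e-05 for Scd1 (log2 change -0.17) and 0.0496 for Insig1. Of all 11586 genes, 1337 were higher and 1019 lower under the block. Without control replicate 3, 4 members were lower, where 787 of 11587 genes were higher and 430 lower.

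In colonoids, TNF also changed 0 of the 32 members by limma, where 0.137% of 11688 genes were called. Scd1 and Ebp, a sterol isomerase, were the 2 members at an unadjusted p under 0.05, and edgeR and DESeq2 called 0 members. Scd1 stood at 268, 259 and 291 CPM with vehicle and at 232, 225 and 242 CPM with TNF in L42, L43 and L46, lower in 3 of 3 lines without overlap (log2 change -0.23, SE 0.07, adjusted p = 0.75). With the line as a block it was the 1 member called (adjusted p = 0.0211), where 718 of 11688 genes were called. Hmgcs1 stood at 791 ± 85.1 and 786 ± 55.1 CPM, Sqle at 326 ± 12.6 and 309 ± 20.1 CPM, and the 95% intervals of their log2 changes ran from -0.24 to 0.22 and from -0.25 to 0.09.

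TGFB1 with BMP2 lowered sterol and fatty acid genes in the IMC cultures, by small amounts. Against untreated cultures, 13 of 32 members were lower and 0 higher, where 30.2% of 11620 genes were called, 15.9% higher and 14.3% lower. The median log2 change was -0.199 for members and -0.003 for all genes. Lower calls fell on 5 of 7 mevalonate enzymes, 4 of 11 enzymes from squalene on, 1 of 5 regulators, 3 of 6 enzymes of fatty acid synthesis and 0 of 3 of the polyunsaturated route. The count was 5 without control replicate 1, control replicate 2 or treated replicate 3. In these settings 2718, 2578 and 3208 of all genes were called. The count of members was 18 when libraries were scaled by total listed reads alone, and 0 members were higher in any of these settings. That scaling turned the split of all calls from 1848 higher and 1665 lower to 1228 and 2896. With the replicate number as a block, 19 members were lower and 0 higher, where 2128 of 11620 genes were higher and 1984 lower. Replicate 3 held the lowest value of 15 of the 18 sterol enzymes and 8 of the 9 fatty acid enzymes in either arm. In all 4 IMC groups it also had the fewest recovered reads, 21.6 to 25.2 M against 34.8 to 42.9 M in replicates 1 and 2. The part of read depth in these values was not tested.

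Elovl6 changed most, from 30.7, 30.8 and 28.6 CPM to 19.7, 20 and 16.7 CPM. Its log2 change was -0.65, with an SE of 0.08 (adjusted p = 4.43e-05), and the groups lie well apart. Scd1 stood at 243, 253 and 193 CPM in controls and at 195, 184 and 153 CPM with the ligands, an overlap of 1 library on each side (log2 change -0.37, SE 0.10, adjusted p = 0.0122, lost with DESeq2 at 0.0542 and without any 1 of 2 libraries). Acly, which releases acetyl-CoA from citrate, fell from 192 ± 11.6 to 167 ± 1.27 CPM (adjusted p = 0.0109, lost without control replicate 1 or 2). Scd2 (607 ± 115 and 539 ± 95.2 CPM), Acaca (109 ± 2.71 and 108 ± 10.5), Fasn (332 ± 31.6 and 329 ± 24.1), Fads1 (294 ± 22.7 and 294 ± 13.0) and Fads2 (271 ± 28.4 and 241 ± 10.8) did not pass.

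On the sterol side, Idi1, the isomerase of isopentenyl diphosphate, stood at 117, 116 and 103 CPM in controls and at 88.0, 93.2 and 70.4 CPM with the ligands. It fell by 0.42 (SE 0.09, adjusted p = 0.0028) without overlap. Lss, the enzyme that closes the rings of lanosterol, fell by 0.35 (46.5, 44.5 and 40.6 to 37.4, 34.5 and 30.7 CPM, adjusted p = 0.00438). Smaller falls without overlap were those of Dhcr7 (0.29), Pmvk (0.27), Hmgcs1 (0.25, from 113 ± 4.61 to 95.3 ± 10.3 CPM, adjusted p = 0.0178), Sqle (0.24) and Msmo1 (0.20). These calls were lost without any 1 of 4 libraries for Dhcr7 and Pmvk, of 3 for Hmgcs1 and Msmo1 and of 2 for Sqle. Mvk fell by 0.46 and Mvd by 0.30, with libraries of the groups overlapping, and the call of Mvd (adjusted p = 0.0497) was lost with a pseudocount of 4 CPM, a minimum mean of 5 CPM or any 1 of 4 libraries left out, and that of Mvk without any 1 of 3.

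Insig2 was the regulator called, from 24.9, 24.2 and 19.6 CPM to 16.2, 16.7 and 15.8 CPM. It fell by 0.46 (SE 0.09, adjusted p = 0.00186), and all treated libraries lay below all controls. Srebf1 (133 ± 19.8 and 113 ± 7.24 CPM), Srebf2 (224 ± 31.6 and 194 ± 18.9), Scap (137 ± 3.56 and 133 ± 8.05) and Insig1 (52.6 ± 7.51 and 51.3 ± 6.13) did not pass, with adjusted p of 0.0751, 0.108, 0.599 and 0.851. In the related lists, the cholesterol exporter Abca1 fell from 119 ± 6.45 to 73.8 ± 7.64 CPM (adjusted p = 8.55e-06) and Soat1, which stores cholesterol as ester, rose from 89.6 ± 5.38 to 137 ± 6.18 CPM (adjusted p = 2.89e-06). Of 17 genes of sterol uptake, transport and efflux 4 were higher and 3 lower, of 28 genes of fatty acid supply 2 and 8, and of 23 genes of fatty acid oxidation 3 and 6, where 15.9% of all genes were higher and 14.3% lower.

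With TNF present in both arms, 14 of the 31 members listed were lower with TGFB1 and BMP2 and 0 higher. Of 11567 genes tested, 31.9% were called, 16.4% higher and 15.6% lower. Tm7sf2 was not listed in this table. Elovl6 stood at 30.8, 29.0 and 23.4 CPM with TNF alone and at 16.9, 17.7 and 16.4 CPM with all 3 ligands (log2 change -0.66, SE 0.10, adjusted p = 0.000178). Insig2 stood at 25.1, 24.3 and 24.1 CPM and at 17.2, 18.8 and 16.5 CPM (log2 change -0.46, adjusted p = 0.000397). Both genes were apart in all libraries, as they were without TNF.

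Mvk, Idi1, Lss and Dhcr7 followed, falling by 0.44, 0.43, 0.37 and 0.32, all without overlap. Hmgcs1 fell by 0.31 (adjusted p = 0.00636), Scd1 by 0.32 (0.0123), Sqle by 0.20 (0.0429) and Acly by 0.16 (0.0431). The calls of Sqle and Acly were lost without any 1 of 5 libraries, and that of Scd1 without TNF replicate 1. Srebf1 and Srebf2 fell by 0.24 and 0.22 (adjusted p = 0.0254 and 0.0385), with 1 or more libraries overlapping in each, and each call was lost without any 1 of 4 libraries. Scap, Insig1, Acaca, Fasn, Scd2, Fads1 and Fads2 did not pass.

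The count in this comparison was 8 without either TNF replicate 1 or TNF replicate 2, and 9 without replicate 2 or 3 of the cultures given all 3 ligands. Of all genes, 2664 and 3037 were called in the former settings, and 2921 and 3599 in the latter. The count of members was 20 with the replicate number as a block, where 2528 of 11567 genes were higher and 2481 lower. It was 21 when scaled by total listed reads alone, and 0 members were higher in any of these settings. Under the block, Acat2, Pmvk, Mvd, Fdft1, Scd2 and Fads2 were called lower as well, with adjusted p from 0.000185 (Mvd) to 0.0208 (Fads2). The total-reads scaling turned the split of all calls from 1892 higher and 1802 lower to 1268 and 3065.

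In colonoids the same ligands raised most sterol genes and lowered the desaturases of the polyunsaturated route. With TGFB1 and BMP2, 14 of 32 members were higher and 4 lower, where 56.7% of 11633 genes were called, 28.0% higher and 28.7% lower. The members' share of calls is thus near that of all genes. Of the 18 sterol enzymes, 11 were higher and 0 lower, with a median log2 change of 0.63 against -0.015 for all genes. All 3 enzymes of the polyunsaturated route were lower, with a median of -1.418. With the line as a block, 14 members were again higher and 4 lower, where 3540 of 11633 genes were higher and 3683 lower.

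Fads1 fell most, from 82.5, 76.8 and 87.4 CPM with vehicle to 17.2, 7.97 and 41.6 CPM with the ligands in L42, L43 and L46. The log2 change was -2.12 (SE 0.51, adjusted p = 0.013), and the treated value of L46 lay well above that of either other line. Fads2 went from 171, 188 and 156 CPM to 65.3, 49.8 and 78.3 CPM (log2 change -1.42, SE 0.17, adjusted p = 0.00201). Elovl5 went from 149.6, 141 and 158 CPM to 109, 98.4 and 137 CPM (log2 change -0.39, adjusted p = 0.0425, lost with edgeR at 0.0509 and without any 1 of 5 libraries). In each of the 3 genes all lines fell, L46 had the highest treated level, and the groups did not overlap.

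The stearoyl-CoA desaturases parted. Scd1 stood at 242, 238 and 266 CPM with vehicle and at 153, 122 and 207 CPM with the ligands (log2 change -0.66, SE 0.19, adjusted p = 0.0231). That call was lost without any 1 of the 3 vehicle libraries or without treated L42. Scd2, at 3248, 3252 and 3547 CPM with vehicle, stood at 4339, 3987 and 3924 CPM with the ligands, higher in 3 of 3 lines without passing the test (log2 change 0.29, adjusted p = 0.145). Elovl6 rose from 102, 93.7 and 99.3 CPM to 141, 171 and 123 CPM (log2 change 0.54, SE 0.13, adjusted p = 0.0124, lost at 0.0636 when scaled by total reads). Acly (383 ± 56.5 and 334 ± 5.84 CPM), Acaca (120.3 ± 1.86 and 114 ± 3.48) and Fasn (391 ± 45.5 and 392 ± 69.2) did not pass.

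**Figure D3:**
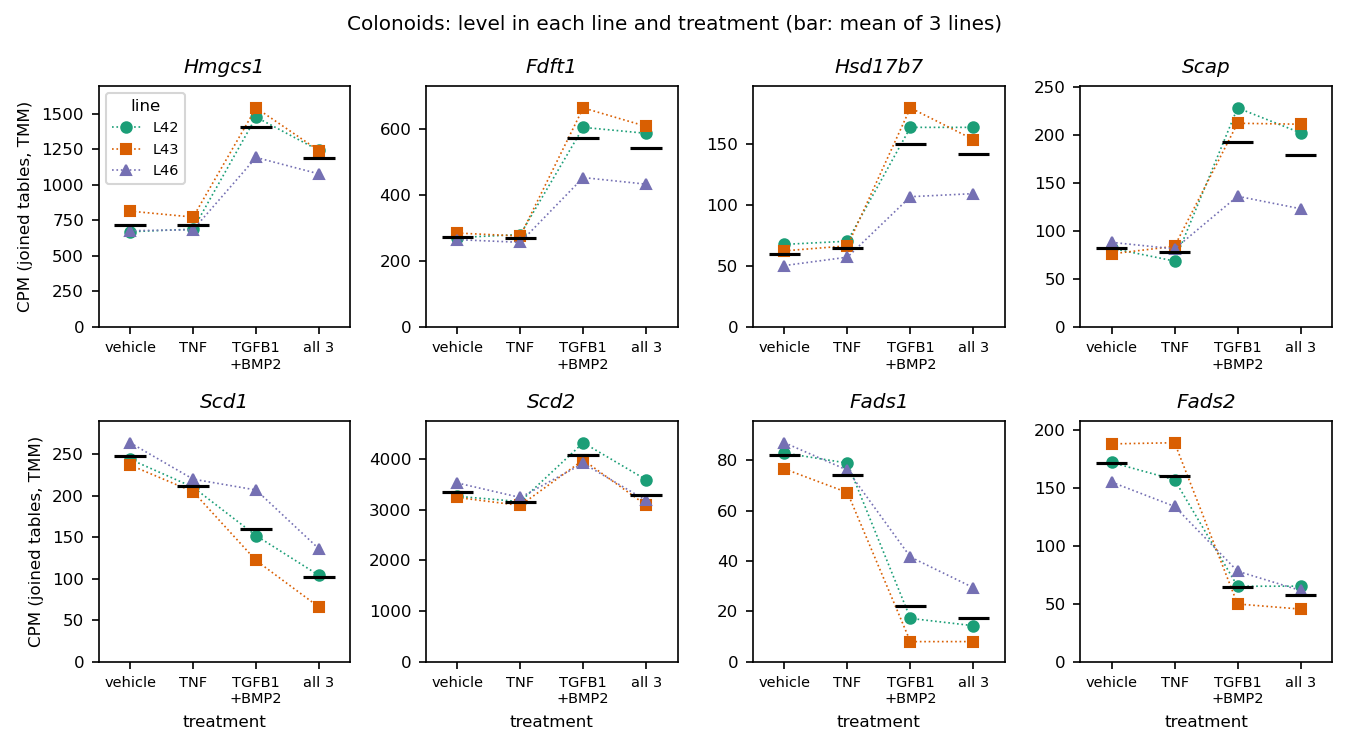
CPM of 8 members in colonoids of lines L42, L43 and L46 (coloured symbols, dotted lines join 1 line) under vehicle, TNF, TGFB1 with BMP2, and all 3 ligands, with the 3 deposited tables joined on 1 scale; black bars are means of 3 lines and axes start at 0. Hmgcs1, Fdft1, Hsd17b7 and Scap are higher in both conditions with TGFB1 and BMP2, Fads1 and Fads2 lower, and L46 lies closest to its vehicle value in Hsd17b7, Scap, Scd1 and Fads1. By the values in the text, with TGFB1 and BMP2 alone this also holds for Hmgcs1, Fdft1, Scd2 and Fads2.

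Hsd17b7 led the sterol genes that rose. It stood at 67.4, 62.7 and 50.7 CPM with vehicle and at 164, 180.1 and 107 CPM with the ligands (log2 change 1.28, SE 0.21, adjusted p = 0.00419). Sc5d went from 128, 147 and 121 CPM to 316, 328 and 213 CPM (log2 change 1.09, SE 0.18, adjusted p = 0.00429). Both genes were higher in 3 of 3 lines without overlap. Of the 6 members with an E-box in their window, these 2 and Scap rose, Elovl5 fell, and Dhcr7 and Insig1 were not called. Of all genes, 56.7% were called here, and the windows of Hsd17b7 and Sc5d were picked for their rise. A link between motif and change was not tested.

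Fdft1, the squalene synthase that commits farnesyl diphosphate to sterols, stood at 269, 284 and 265 CPM with vehicle and at 606, 664 and 453 CPM with the ligands (log2 change 1.05, SE 0.15, adjusted p = 0.00289). Hmgcs1 stood at 666, 817 and 680.5 CPM with vehicle and at 1482, 1543 and 1195 CPM with the ligands (log2 change 0.96, SE 0.15, adjusted p = 0.00342). In these 2 genes as in the former 2, the treated level was lowest in L46 and still above every vehicle library. Cyp51, Msmo1, Pmvk, Fdps, Nsdhl, Lss and Mvd rose by 0.58 to 0.71 on the log2 scale, with adjusted p from 0.00226 to 0.00778.

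Not every sterol gene rose. Sqle stood at 297, 309.7 and 285 CPM with vehicle and 359, 382 and 321 CPM with the ligands (log2 change 0.25, adjusted p = 0.0628), and with total-reads scaling this change was -0.03, or 0.25 relative to the median of all genes. Dhcr7 stood at 176, 175 and 202 CPM with vehicle and at 123, 139.6 and 277 CPM with the ligands, lower in L42 and L43 and higher in L46 (log2 change -0.13, SE 0.29, adjusted p = 0.727). Acat2, Mvk, Idi1, Tm7sf2 and Ebp did not pass either.

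Among the regulators, Scap stood at 81.3, 76.2 and 88.4 CPM with vehicle and at 229, 212 and 136 CPM with the ligands. Its log2 change was 1.19 (SE 0.20, adjusted p = 0.00427). Srebf2 rose from 464, 407 and 526 CPM to 571, 627 and 618 CPM (log2 change 0.38, adjusted p = 0.0307), a call lost under total-reads scaling (0.467) and without any 1 of 4 libraries, vehicle L42 or L43 or treated L42 or L43. Insig1 (345 ± 39.7 and 409 ± 18.8 CPM), Insig2 (40.9 ± 1.49 and 48.9 ± 3.29) and Srebf1 (158 ± 15 and 162 ± 1.87) did not pass, with adjusted p of 0.0898, 0.0523 and 0.734.

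The scaling matters in this comparison. Scaling by total listed reads alone moved the median log2 change of all genes to -0.278 and turned the split of all calls from 3262 higher and 3334 lower to 1996 and 5010. Under it, 12 members were higher and 8 lower, and 11 of 18 sterol enzymes were higher and 2 lower. Relative to the median of all genes the sterol median was 0.65 on the authors' scale and 0.63 on total reads, and that of the polyunsaturated route -1.40 and -1.42. Since the scaling shifts every gene alike, the small positive changes of 7 uncalled members turned sign with it: Acat2, Mvk, Idi1, Sqle, Srebf1, Insig1 and Insig2.

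In the related lists, Dgat2, which makes triglyceride, went from 29.7 ± 5.66 to 326 ± 155 CPM (log2 change 3.28, adjusted p = 0.00211), and Acsl3, which activates fatty acids, from 249 ± 16.3 to 912 ± 314 CPM (1.81, 0.00291). Mlxipl, a sugar-sensing factor of lipogenesis, fell from 26.4 ± 2.82 to 4.23 ± 0.99 CPM (adjusted p = 0.0011). Npc1, which lets cholesterol out of lysosomes, rose from 50.9 ± 9.62 to 158 ± 20 CPM, while Lbr, a nuclear envelope protein with sterol reductase activity, fell from 162 ± 4.24 to 43 ± 18 CPM. Of 18 genes of sterol uptake, transport and efflux 5 were higher and 6 lower, of 29 genes of fatty acid supply 13 and 4, and of 25 genes of fatty acid oxidation 5 and 11, where 56.7% of all genes were called, 28.0% higher and 28.7% lower. Proliferation markers fell in 10 of 10, and their summed level ran from 2075 to 2624 CPM with vehicle and from 328 to 1238 CPM with the ligands, while 10 of 12 epithelial markers rose (sums of 10336 to 12590.0 and 27051 to 36167 CPM). In L42, L43 and L46 the treated sums were 369.6, 328 and 1238 CPM for proliferation markers and 35539, 36167 and 27051 CPM for epithelial markers. L46 thus lay closest to vehicle in these markers too. The part of either marker list in the members' changes was not tested.

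With TNF in both arms, TGFB1 and BMP2 raised 10 of 32 members and lowered 4. Of 11595 genes tested, 54.1% were called, 26.4% higher and 27.7% lower, so the members' share of calls is below that of all genes. The sterol enzymes had 9 higher and 0 lower (median 0.367, all genes -0.025), and the polyunsaturated route had 3 of 3 lower. Fads1 went from 79.2, 67.5 and 76.1 CPM with TNF to 14.2, 7.90 and 29.3 CPM with all 3 ligands (log2 change -2.23, SE 0.41, adjusted p = 0.00567). Fads2 fell by 1.48 (adjusted p = 0.00207) and Elovl5 by 0.56 (0.0191, lost without any 1 of 4 libraries). As without TNF, L46 kept the highest Fads1 level.

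Scd1 went from 211, 206 and 220.3 CPM to 103, 65.1 and 136 CPM (log2 change -1.12, SE 0.25, adjusted p = 0.0102). Scap rose from 68.8, 84.2 and 81.2 CPM to 201, 209 and 122 CPM (log2 change 1.14, adjusted p = 0.00617). Hsd17b7 rose by 1.09, Sc5d by 1.02, Fdft1 by 0.97 and Hmgcs1 by 0.71, each with all treated lines above all lines given TNF alone (adjusted p from 0.00291 to 0.00421). Srebf2 (420.3, 459.6 and 517 to 552, 643 and 559 CPM) did not overlap and missed the threshold at 0.0518, and Sqle (log2 change 0.04), Dhcr7 (-0.34), Insig1 (0.13), Insig2 (0.17), Srebf1 (-0.01), Acly (-0.24), Acaca (-0.22), Fasn (-0.20), Scd2 (0.04) and Elovl6 (0.04) did not pass.

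With the line as a block, 11 members were higher and 5 lower in this comparison, Mvd and Acaca being added (adjusted p = 0.0345 and 0.0439). Of all 11595 genes, 3447 were higher and 3618 lower under this block. Under total-reads scaling, 6 members were higher and 9 lower, and the median of all genes was -0.268. Relative to it, the sterol median was 0.38, against 0.39 on the authors' scale. Pmvk, Cyp51, Msmo1 and Nsdhl lost their call there, that of Nsdhl was also lost without any 1 of 4 libraries and those of Pmvk and Cyp51 without L42 given all 3 ligands, and all calls split into 1912 higher and 4879 lower in place of 3061 and 3217. Proliferation markers again fell in 10 of 10.

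**Figure D4:**
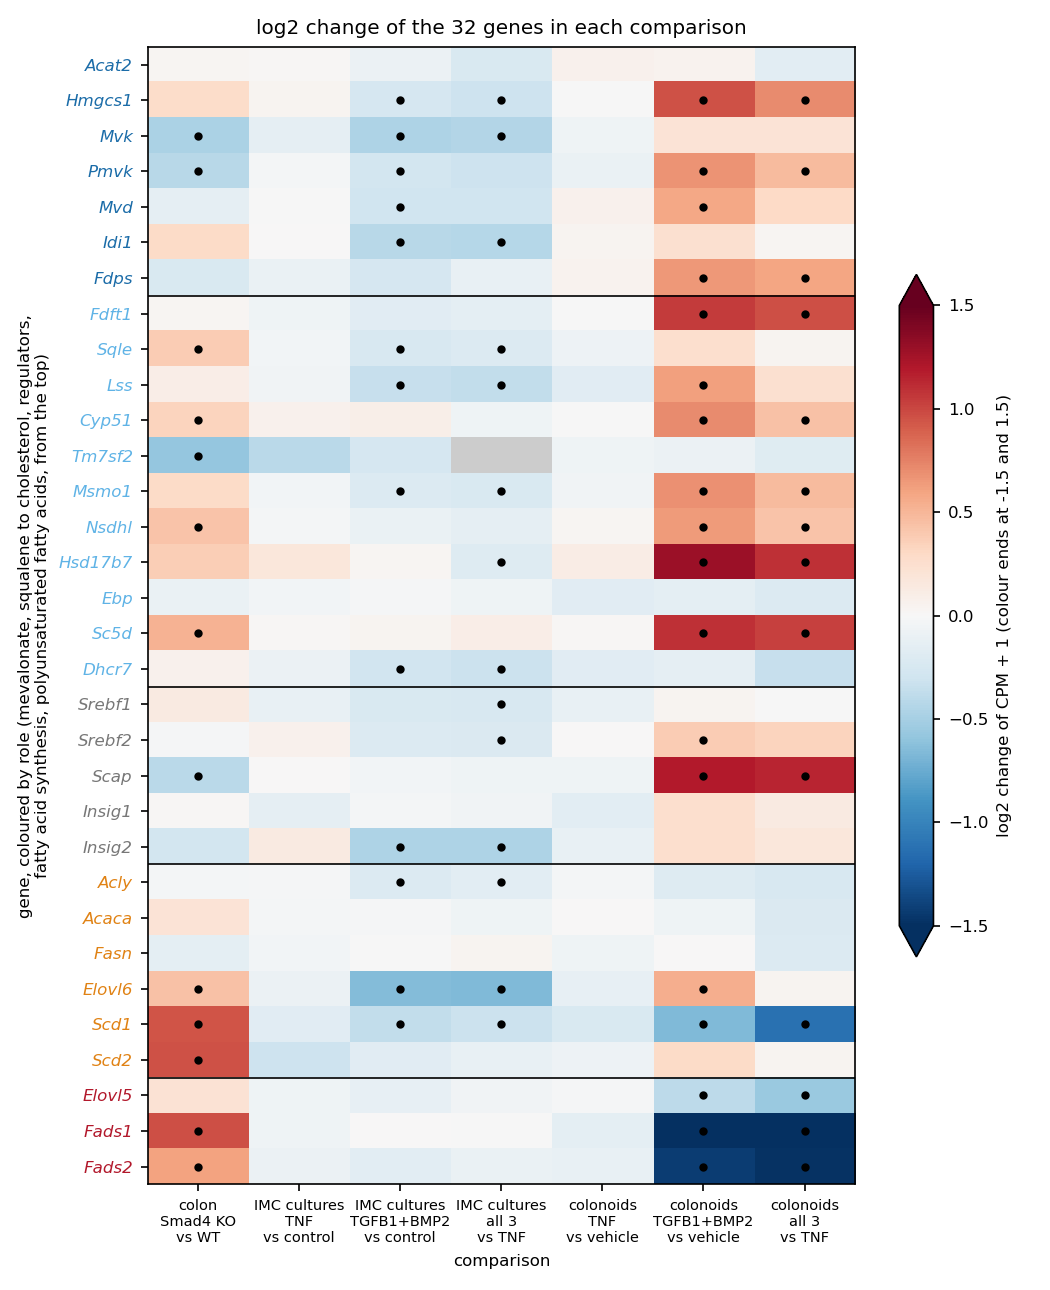
log2 change of CPM + 1 of each of the 32 genes (vertical, grouped by role) in the 7 comparisons (horizontal), red for higher and blue for lower, with colours ending at -1.5 and 1.5, a black dot where the limma adjusted p was under 0.05 and grey where a gene was not listed. Dots are blue in both TGFB1 and BMP2 columns of the IMC cultures, mostly red among sterol genes and blue at the desaturases Scd1, Fads1 and Fads2 in both such columns of the colonoids, and missing from both TNF columns.

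Whether TNF altered the response to TGFB1 and BMP2 was tested as an interaction over the 12 libraries of each culture. In IMC cultures 0 of 31 members were called, where 0.00875% of 11434 genes, a single gene, were called, and edgeR called 0 genes. In colonoids 0 of 32 members and 0 of 11413 genes, 0%, were called, and edgeR called 0 as well. At an unadjusted p under 0.05 there were 356 and 84 genes, and 1 member in each, Hsd17b7 in IMC cultures (interaction -0.23, SE 0.10, 95% interval -0.44 to -0.02) and Elovl6 in colonoids (-0.48, SE 0.16, -0.84 to -0.13). In colonoids Elovl6 thus had a log2 change of 0.54 without TNF and 0.04 with it, a difference with an adjusted p of 1.

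Set side by side, the 2 cultures gave several members changes of opposite sign under TGFB1 and BMP2. Hmgcs1 had a log2 change of -0.25 in IMC cultures and 0.96 in colonoids, Lss -0.35 and 0.62, Elovl6 -0.65 and 0.54, Pmvk -0.27 and 0.67, and Msmo1 -0.20 and 0.69. In these 5 genes the treated and untreated libraries did not overlap in either culture. How many of all genes behave in this way was not counted. Scd1 was lower in both, at -0.37 and -0.66, and Fads1 stood at 0.00 in IMC cultures and -2.12 in colonoids. The 2 cultures differ in their cell type markers, the doses of the IMC cultures are not stated, and the difference between the cultures was not tested.

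**Figure D5:**
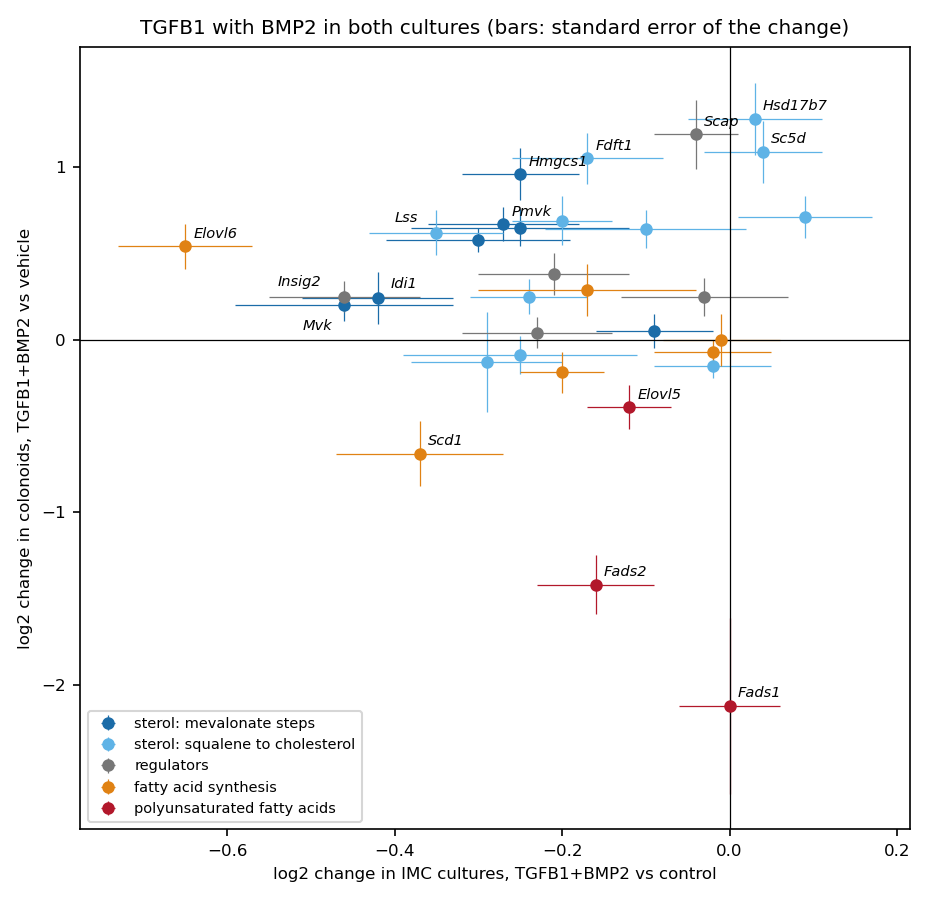
log2 change with TGFB1 and BMP2 in IMC cultures (horizontal) against that in colonoids (vertical) for the 32 genes, coloured by role, with bars of 1 standard error; the 2 axes have different ranges. Hmgcs1, Lss, Pmvk and Elovl6 lie upper left, Scd1 lower left, and Fads1 and Fads2 at the bottom near 0 on the horizontal axis.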

How the data were processed

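RNA was sequenced from 30 samples in 10 groups of 3, grouped by the submitters' titles. Per the submitters' processing notes, reads on mm10 went through TopHat2 2.1.0, HTSeq 0.5.4p5, SAMtools 1.3.1, edgeR 3.4.2, bcl2fastq 2.16 and CASAVA. The role of each, and whether counting used strand, are not stated there. The authors deposited 7 tables, 1 per comparison, whose library columns hold a signal in CPM on an effective library size, set within each table. Columns with a log2 fold change, a log2 average, a p-value and a false discovery rate were deposited beside them, per the file headers, and were not used here. All library values came within 0.05 of a whole read (100% of values) after a search for the value of 1 read, which gave 21.6 to 61.7 M reads per library over listed genes. Recovered reads served the count tests tried as alternatives and the interaction terms.

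The test was limma 3.58.1 (eBayes with trend, two-sided, R 4.3.3) on log2(CPM + 1) in the 6 libraries of each table, for genes whose mean reached 1 CPM, with Benjamini-Hochberg adjustment over all genes tested and a threshold of 0.05. The interaction terms used joined reads scaled by TMM (edgeR 4.0.16). The fold changes understate the change of low genes. Alternatives were other pseudocounts and filters, scaling by total listed reads, edgeR, DESeq2 1.42.0, a replicate block and each library left out; the scripts were tested on simulated data. Exon lengths and positions came from GENCODE on GRCm38, which is mm10, and promoter windows from RefSeq on GRCm38.p6.

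The members and lists were chosen with earlier results of these data known. Of the members, 15 were always to be named (Srebf1, Srebf2, Scap, Insig1, Insig2, Hmgcs1, Sqle, Dhcr7, Acly, Acaca, Fasn, Scd1, Scd2, Fads1 and Fads2), then the 6 with the largest change among those called without overlap, and of each related list the 2 largest rises and falls. Some genes of the related lists that this rule names are not reported here. Further members are named for completeness. In deviations from group means, colonoid libraries of 1 line correlated at 0.283 to 0.887. Same-numbered IMC libraries correlated at 0.163 to 0.522 in the 2 tables that hold TNF libraries. Replicates 1 and 2 of unlike number correlated there at 0.082 to 0.22, so the numbers set apart mainly replicate 3. Colonoid lines and these IMC numbers were both read as pairs, with numbers from the titles. The main tests left the pairing out and used the block only as an alternative. In the IMC table without TNF (0.048 to 0.251) and in colon (-0.006 to 0.123) pairs were not assumed. In that IMC table, replicate 3 was nonetheless lowest in both arms for most sterol members, and its block result is given above.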

Additional observations from a re-analysis of the deposited data

Results flagged for a closer look

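Members whose libraries all moved in the same direction in IMC cultures and all in the opposite direction in colonoids were noted. How many of all genes meet this rule was not counted, and the difference was not tested. It is given as the colonoid minus the IMC log2 change. With TGFB1 and BMP2 against the untreated group it was 1.21 for Hmgcs1, 0.94 for Pmvk, 0.97 for Lss, 0.88 for Msmo1 and 1.19 for Elovl6, all called in both cultures, although in IMC cultures the call was lost without any 1 of 3 libraries for Hmgcs1 and Msmo1 and of 4 for Pmvk. It was 0.49 for Sqle and 0.71 for Insig2, whose colonoid changes of 0.25 were not called. Scaling by total listed reads, which shifts every gene alike, put them at -0.03 and -0.02, or at 0.25 and 0.26 relative to the median of all genes. With TNF in both arms it was 1.02 for Hmgcs1, 0.70 for Msmo1 and 1.28 for Hsd17b7, called in both cultures. In IMC cultures the call of Hsd17b7 was lost with DESeq2 (0.0664) and without any 1 of the 6 libraries (adjusted p from 0.0669 to 0.153), and that of Msmo1 without TNF replicate 1 or 2. In colonoids the call of Msmo1 was lost under total-reads scaling (0.115). The difference was 0.61 for Lss, whose colonoid change of 0.24 was not called and was -0.01 under total-reads scaling, or 0.25 relative to the median of all genes.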

How the results depend on the processing

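With each library left out in turn, the number of members called ran from 7 to 15 in colon (13 with all), from 0 to 4 for TNF in IMC cultures (0), from 5 to 18 and from 8 to 19 for TGFB1 with BMP2 there without and with TNF (13 and 14), and in colonoids from 15 to 21 and from 10 to 17 (18 and 14), with 0 for TNF. Of all genes, 2708 to 4915 were called in colon. For TGFB1 with BMP2, without and with TNF, 2578 to 4100 and 2664 to 3612 were called in IMC cultures. In colonoids these were 4613 to 7617 and 4177 to 7558. The replicate block called 5 members for TNF in IMC cultures and 1 in colonoids. In colon, where pairs were not assumed, it left 13, and in IMC cultures without TNF 19. Other pseudocounts, filters and tests kept every count of members within 1.5 times. NF-Y boxes on the gene's own strand alone were in 11 genes (42.3%, against 23.7% of all genes with a window).

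Among all genes, calls for TNF were 728 in IMC cultures and 2356 with the block (400 to 1217 with a library left out), and 16 in colonoids, 718 with the block and 116 with DESeq2 (1 to 8 with a library left out). In colon they were 4611, and 2721 or 2708 without control or knockout mouse 2. The IMC interaction called 1 gene, 30 with the block and 0 to 10 with a library left out. The total-reads split for TNF in IMC cultures was 442 higher and 296 lower, against 534 and 194. The cause of these differences was not tested. With 3 libraries a group, small changes may be missed, and the interaction tests here say little about changes under the widths of their intervals.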
